A study of Mus musculus with 25 samples.

Results

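The clustered protocadherin genes of the mouse lie side by side on chromosome 18 in 3 clusters, named alpha, beta and gamma, and are described here through the repressive histone marks found on them in regenerating myofibers. The members were every peak whose assigned gene symbol begins with Pcdha, Pcdhb or Pcdhg. They comprised 67 of the 55242 peaks in 24 deposited lists: 64 of 20998 H3K9me3 peaks and 3 of 34244 H3K27me3 peaks. The 67 peaks carried 15 gene symbols, whereas the RefSeq annotation of the same genome (GRCm38.p6) places 58 clustered protocadherin genes across 911.6 kb of this chromosome.

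Chromatin immunoprecipitation sequencing (ChIP-seq) was performed with antibodies to H3K9me3 and H3K27me3 on myofibers from tibialis anterior muscle at 14 days post injury (dpi), to ask whether the marks differ between genotypes. All animals carried Pax7-Cre(ERT2), a driver that recombines floxed alleles in muscle stem cells after tamoxifen, and the mito-Dendra2 reporter that labels their descendants. Each received 75 mg/kg tamoxifen daily for 5 days, and 2 days later an injection of 50 µL of 1.2% BaCl2, which kills existing fibers so that new ones form. Wild-type animals were compared with mfn2-/- animals, which lose the mitochondrial fusion protein Mfn2 in this lineage, with vhl-/- animals, which lose the ubiquitin ligase component that marks HIF1α for degradation, and with HIF1dPA animals, which express a HIF1α with proline-to-alanine changes that VHL cannot recognize. Each of the 4 genotypes had 3 libraries per mark. Strain, age and sex were not given in the labels. The study describes the libraries of a group as biological replicates. The Cre driver does not act in the other cells of the muscle, such as endothelial, immune or interstitial cells. A smaller number of nuclei carrying a mark and less of the mark per nucleus cannot be told apart in bulk chromatin.

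Clustered protocadherins are cell surface adhesion proteins that bind copies of themselves on neighboring cells, and they are best known from neurons, where each cell expresses its own small selection. In the alpha and gamma clusters, a long array of variable first exons, each with its own promoter, is spliced to shared constant exons at the end of the cluster, whereas each beta gene is a single exon with its own promoter. H3K9me3, written at many repeated gene families by SETDB1 and its partners, and H3K27me3, written by the Polycomb complex PRC2, are both found at silent chromatin. No sequence is printed, because none of these genes is in the sequence tables used.

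H3K9me3 was found among the later beta genes and in the variable exon array of the gamma cluster and was sparse in the alpha cluster. Wild-type lists held more of these peaks than mutant lists. The 3 wild-type lists held 12, 12 and 9 clustered protocadherin peaks. The mfn2-/- lists held 1, 0 and 2, the vhl-/- lists 5, 6 and 3, and the HIF1dPA lists 6, 4 and 4. Every wild-type list thus held more than any of the 9 mutant lists, with a wild-type mean of 11.0 ± 1.73 (SD, n = 3). The mfn2-/- mean was 1.00 ± 1.00, that of vhl-/- 4.67 ± 1.53 and that of HIF1dPA 4.67 ± 1.15 (n = 3 each). The base pairs under these peaks followed the same order, at 6488 ± 1250.2 bp per wild-type list and 552 ± 536 bp per mfn2-/- list, with vhl-/- (3179 ± 1383 bp) and HIF1dPA (2776 ± 808 bp) between them.

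**Figure D1:**
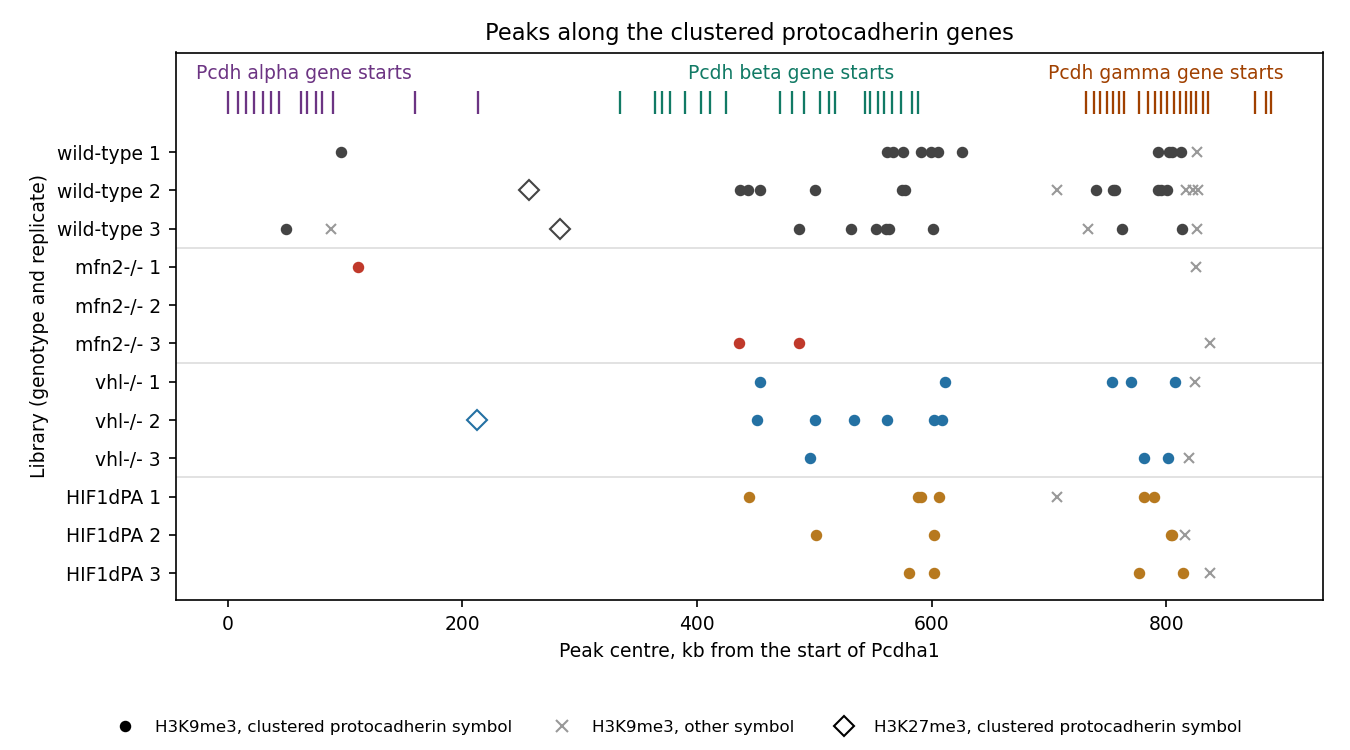
Centres of peaks in each library (rows) against the distance in kb from the start of Pcdha1, with short vertical lines for RefSeq gene starts. Filled circles are H3K9me3 peaks with a clustered protocadherin symbol, gray crosses H3K9me3 peaks with another symbol, and open diamonds the 3 H3K27me3 peaks. The circles gather among the later beta genes and in the variable exon array of the gamma cluster, and the mfn2-/- rows are nearly empty.

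Wild-type lists were also longer as a whole, so the members were set beside all autosomal peaks. The lists held 2176 to 2407 autosomal H3K9me3 peaks in wild-type and 780 to 1588 in the mutants. The mfn2-/- mean was 0.0909 times the wild-type mean for the members and 0.454 times for all autosomal peaks. In vhl-/- the same ratios were 0.424 and 0.510, and in HIF1dPA they were 0.424 and 0.626. The autosomes were used because the X chromosome held 24.3% of wild-type H3K9me3 peaks and 4.42% to 12.4% of those of the mutants.

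As a share of the autosomal peaks of its own list, the members made up 0.484 ± 0.0758% (SD, n = 3) in wild-type lists and 0.0839 ± 0.0776% in mfn2-/- lists. The share was 0.415 ± 0.164% for vhl-/- and 0.331 ± 0.0708% for HIF1dPA (n = 3 each). The mfn2-/- shares of 0.0986%, 0% and 0.153%, from 1, 0 and 2 peaks, lay below the wild-type shares of 0.551%, 0.499% and 0.402%. How many other gene groups or windows show such a gap in share was not counted. The vhl-/- shares of 0.481%, 0.535% and 0.228% overlapped those of wild-type. The highest HIF1dPA share, 0.389%, was just under the lowest wild-type share. No p is given for these counts, because they are sums over the chosen members and 3 libraries against 3 could not pass 0.05 in an exact permutation test (smallest p 0.1).

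**Figure D2:**
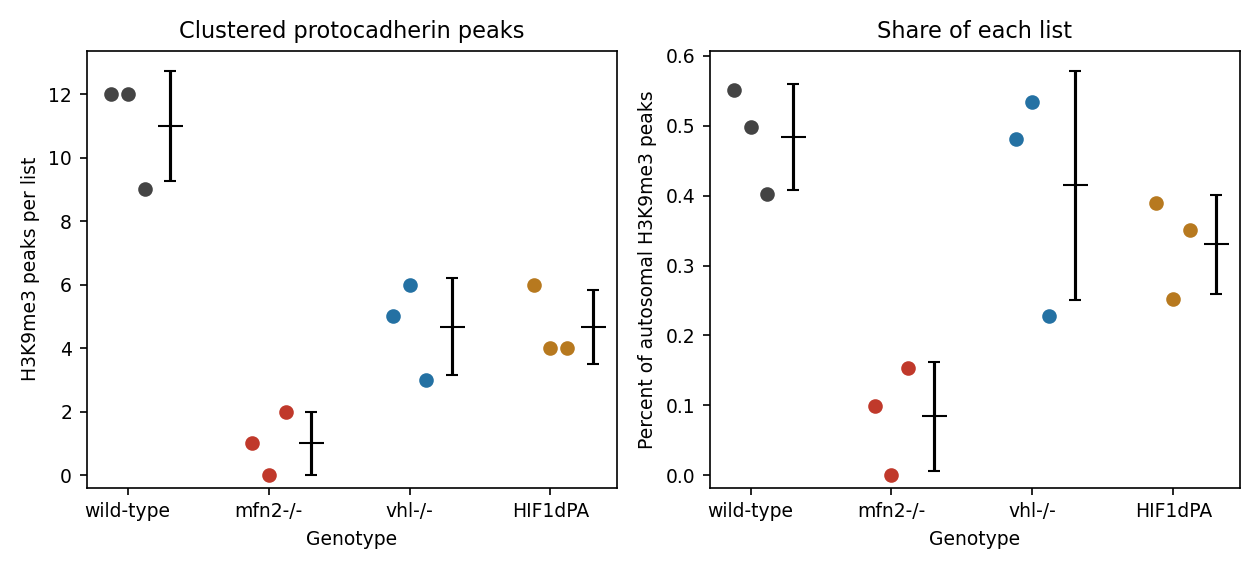
Clustered protocadherin H3K9me3 peaks per list (left) and as a percent of the autosomal peaks of the list (right), with 1 colored point per library and the mean ± SD of 3 libraries as a black bar for each genotype. The 3 wild-type lists lie above all mutant lists on the left, and on the right the vhl-/- lists overlap them.

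The chromosomal neighborhood gave a second comparison. The 1 Mb window from 37 to 38 Mb of chromosome 18 contained 63 of the 64 H3K9me3 members and 78 H3K9me3 peaks in all, which placed it at rank 37 among 1961 autosomal windows with a peak. All 3 wild-type lists (13, 16 and 11 peaks in the window) were above all 9 mutant lists (0 to 7). The same separation was seen in 49 of 218 windows with at least 12 peaks over the 12 lists (22.5%), so it was shared with many other windows. The rate among windows with about as many peaks as this one was not counted. The clusters nevertheless held a large part of their chromosome's H3K9me3, with 21.0 ± 3.72% of chromosome 18 peaks in wild-type lists, 20.8 ± 8.96% for vhl-/-, 17.6 ± 5.64% for HIF1dPA and 3.05 ± 2.88% for mfn2-/- (SD, n = 3 each).

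Just upstream of the clusters the counts did not follow this order. Between Zmat2, the nearest coding gene, and Pcdha1, 130.6 kb held 21 H3K9me3 peaks in 11 of 12 lists, all assigned to the gene model Gm6756. The wild-type lists held 2, 2 and 1 of these, the mfn2-/- lists 2, 0 and 2, the vhl-/- lists 1, 1 and 2, and the HIF1dPA lists 2, 4 and 2. The wild-type and mutant lists overlapped there, and mfn2-/- replicate 2, which held no clustered protocadherin peak, also had none in this flank.

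The separation was not seen among the strongest peaks of each list. When each list was reduced to its 887 strongest peaks, the length of the shortest list, the wild-type lists held 2, 3 and 1 clustered protocadherin peaks. The mfn2-/- lists then held 0, 0 and 2, the vhl-/- lists 2, 4 and 2, and the HIF1dPA lists 1, 1 and 3, so that every mutant genotype overlapped wild-type. At a peak score of at least 100, where the deposited score is −10 times the log10 of the p-value of the peak caller, 1 member was left of 64, in vhl-/- replicate 2. Peaks in the gamma array assigned to the gene model Gm26672 are not members, and these also passed this score in vhl-/- replicate 1 (165.44) and wild-type replicate 3 (105.8). Read depth is not in the lists, so how much of the difference follows the number of peaks a library could yield was not tested.

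**Figure D3:**
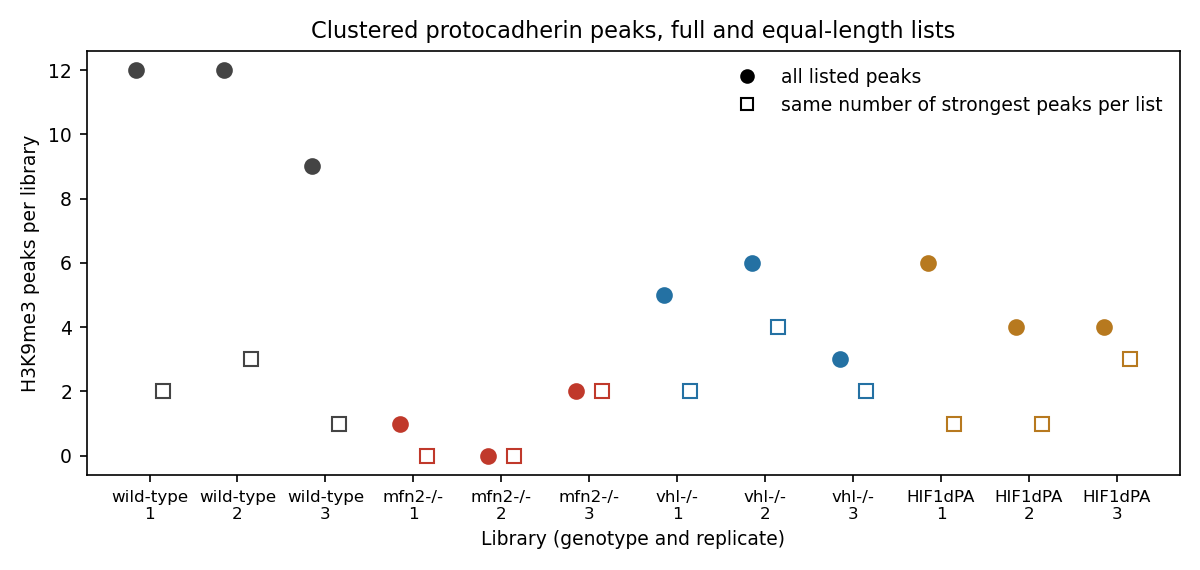
Clustered protocadherin H3K9me3 peaks in each library, counted over all listed peaks (filled circles) and over the same number of strongest peaks in every list (open squares). Wild-type libraries hold 9 to 12 peaks by the first count and 1 to 3 by the second, where they overlap all mutant genotypes.

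The score of most members lay in the lower part of their own list. H3K9me3 members had scores of 50.05 to 113.91 with a median of 59.8, beside 60.8 for all H3K9me3 peaks. Ranked within their lists, they had a median percentile of 44.0, and 26 of 64 lay above the median of their list. Their widths, from 368 to 1079 bp, had a median of 588.5 bp, compared with 605 bp over all H3K9me3 peaks. The widest H3K9me3 member, with 1079 bp, was a vhl-/- replicate 2 peak assigned to Pcdhb22, which stood at percentile 90.0 of its list, the highest among the H3K9me3 members, with a score of 113.91. Wild-type members had a median percentile of 47.0, the 3 peaks of mfn2-/- 41.9, those of vhl-/- 28.3 and those of HIF1dPA 36.6, with wide overlap between individual peaks. These are ranks within lists of 887 to 3176 peaks, so the same percentile stands for different ranks in different lists.

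**Figure D4:**
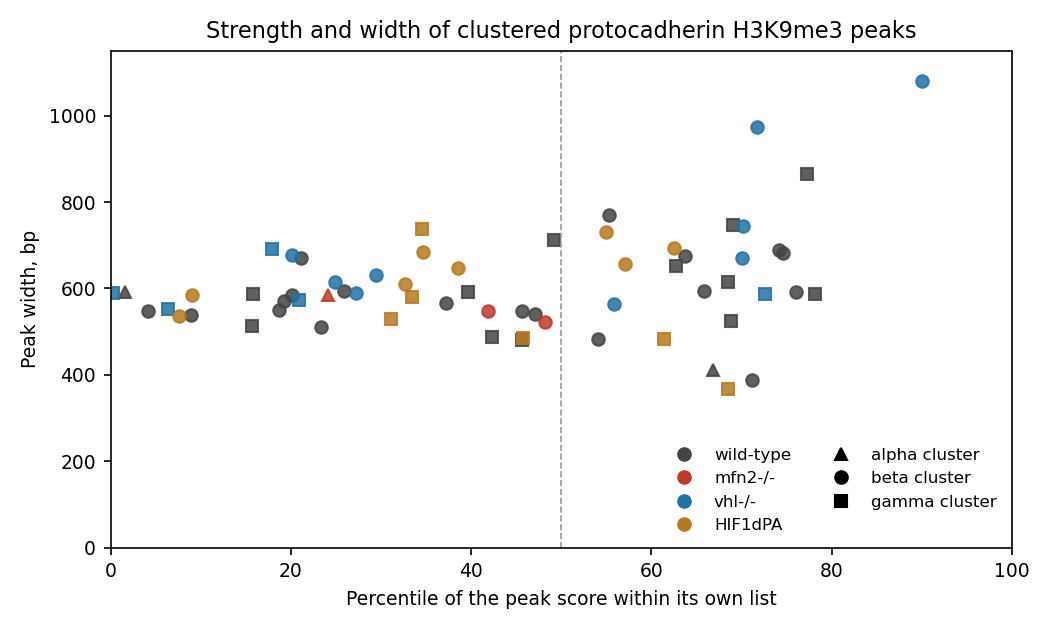
Width in bp of each H3K9me3 member against the percentile of its score within its own list, colored by genotype and shaped by cluster, with a dashed line at the median of the list. Widths run from 368 to 1079 bp, and 26 of 64 lie to the right of the line.

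The alpha cluster was the poorest of the 3 in H3K9me3. RefSeq lists 14 alpha genes in 258.6 kb, and 3 H3K9me3 peaks carried an alpha symbol, in wild-type replicates 1 and 3 and mfn2-/- replicate 1. One more peak within the cluster, in wild-type replicate 3, had been assigned to the gene model Gm10545. All 3 members had been assigned to Pcdha11, yet by position the nearest gene starts were those of Pcdha7 (6447 bp before the centre of the wild-type replicate 3 peak) and Pcdha12 (for the other 2). None of the 3 members overlapped the first 2.5 kb of a gene, the stretch that was searched for a variable exon. No vhl-/- or HIF1dPA list had an H3K9me3 peak with an alpha symbol.

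After the last alpha peak, no H3K9me3 peak of any list or symbol was found for 324.2 kb. This stretch took in the starts of Pcdhac1 and Pcdhac2, the 2 alpha variable exons closest to the constant exons, and of the beta genes Pcdhb1 to Pcdhb8. The first beta peak lay 3′ of the start of Pcdhb8.

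The beta cluster held 38 of the 64 H3K9me3 members, in 10 of 12 lists and under the symbols of 13 of its 22 genes. The wild-type lists held 7, 6 and 6 beta peaks, the mfn2-/- lists 0, 0 and 2, the vhl-/- lists 2, 6 and 1, and the HIF1dPA lists 4, 2 and 2. The mfn2-/- and HIF1dPA lists lay below every wild-type list, while vhl-/- replicate 2 reached the wild-type level. Counts of all autosomal peaks also lay below every wild-type list in each mutant. In 22.5% of the 1 Mb windows compared, every wild-type list was above every mutant list, and single mutants were not counted there. Beta peaks ran over 190.8 kb from Pcdhb8 to past Pcdhb22, and Pcdhb1 to Pcdhb7 and Pcdhb13 and Pcdhb17 had no peak assigned.

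Beta peaks lay both on genes and between them. Of the 38, 12 overlapped the body of a beta gene and 26 lay between or past the genes, 10 of these past the end of Pcdhb22. Gene bodies make up 29.5% of the bases from Pcdhb1 to the end of Pcdhb22, a span that leaves out those 10 peaks. The first 2.5 kb of a gene was overlapped by 7 peaks (18.4%), and such windows make up 18.3% of the bases from the first to the last beta peak. A peak counted when any base overlapped, so shares of peaks and shares of bases are unlike measures.

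Pcdhb22, the last gene of the beta cluster, had the most peaks of any beta symbol, with 13 in 7 lists. Wild-type lists held 4, 0 and 1, mfn2-/- lists none, vhl-/- lists 1, 2 and 0, and HIF1dPA lists 3, 1 and 1, so wild-type and HIF1dPA overlapped. Of the 13 peaks, 10 lay 8.19 to 34.9 kb past the end of the gene (chr18:37518353-37521419), between the beta and gamma clusters. The most recurrent region among all members was in this intergenic stretch, at chr18:37531435-37532792. It was covered over 675 bp in wild-type replicate 3, 1079 bp in vhl-/- replicate 2, and 611 and 731 bp in HIF1dPA replicates 2 and 3, and had no peak in the other 8 lists.

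Pcdhb18 had 4 peaks, with 1, 0 and 2 in the wild-type lists and 1 in vhl-/- replicate 2. At chr18:37491582-37492302, at the end of the first 2.5 kb of this gene, 594 bp were covered in wild-type replicate 1, 484 bp in wild-type replicate 3 and 670 bp in vhl-/- replicate 2. No mfn2-/- or HIF1dPA list had a peak there. Pcdhb20 had 3 peaks at separate positions in wild-type replicates 1 and 2, and none in wild-type replicate 3 or any mutant list. Of the symbols found in 1 list, Pcdhb14, Pcdhb16 and Pcdhb19 were in wild-type, Pcdhb11 and Pcdhb15 in vhl-/- and Pcdhb21 in HIF1dPA.

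Symbols of earlier beta genes were assigned peaks in a few lists each. All peaks of Pcdhb8, Pcdhb9 and Pcdhb12 were classed as distal intergenic and lay outside these genes. For Pcdhb8, a gene of 2340 bp, the peak centres lay 10498 to 19745 bp past its start. Pcdhb8 had 2 peaks in wild-type replicate 2 and 1 each in mfn2-/- replicate 3 and HIF1dPA replicate 1. Pcdhb9 had 1 peak each in wild-type replicate 2, vhl-/- replicate 1 and vhl-/- replicate 2, and Pcdhb12 had 1 each in wild-type replicate 2, vhl-/- replicate 2 and HIF1dPA replicate 2. The other 8 symbols with H3K9me3, namely Pcdhb10, Pcdhb11, Pcdhb14, Pcdhb15, Pcdhb16, Pcdhb19, Pcdhb20 and Pcdhb21, were each found in 1 or 2 lists. The beta genes encode closely related proteins, and how reads that match several of them were placed is not given in the sources used here.

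The gamma cluster held 23 H3K9me3 members in 8 lists. Wild-type lists held 4, 6 and 2, mfn2-/- lists 0, 0 and 0, vhl-/- lists 3, 0 and 2, and HIF1dPA lists 2, 2 and 2. Wild-type and mfn2-/- did not overlap, while vhl-/- and HIF1dPA both overlapped wild-type. All autosomal peaks together also separated wild-type (2176 to 2407 per list) from mfn2-/- (780 to 1306). How many other stretches separate these 2 genotypes was not counted.

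All 23 gamma peaks had been assigned to Pcdhgc4, but none lay near its RefSeq start. The lists class several of them in intron 1 of a transcript with the gene ID of Pcdhgc4, so the gene models differ. The 23 peaks spread over 74.1 kb at the start of the cluster, and the last one ended 70.5 kb before the RefSeq start of Pcdhgc4 and 61.8 kb before that of Pcdhgc3. By position, the nearest gene starts belonged to 10 other genes, namely Pcdhga2, Pcdhga4 to Pcdhga9, Pcdhgb4, Pcdhgb5 and Pcdhgb6. The peaks thus lay in the array of A-type and B-type variable exons, and none lay at the C-type genes or at the constant exons after them.

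Within this array, 12 of 23 peaks (52.2%) overlapped the first 2.5 kb of a gene. Such windows took 41.7% of the bases from the first to the last gamma peak. A peak counted when any base overlapped, so its share is expected to exceed the share of bases. No preference for these windows can be read from the 2 percentages. Pcdhgb5 and Pcdhgb6 were each covered in 3 lists. The Pcdhgb5 window was covered in wild-type replicates 1 and 2 and vhl-/- replicate 3, and that of Pcdhgb6 in wild-type replicates 1 and 3 and HIF1dPA replicate 3. In all 3 clusters together, 19 of 64 peaks (29.7%, 95% Wilson interval 19.9 to 41.8%) overlapped such a window, where the interval covers counting error only.

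The gamma array extended past the peaks that carried its symbols. Another 11 H3K9me3 peaks in 9 lists, assigned to the gene model Gm26672, lay at Pcdhga10, Pcdhgb7, Pcdhga11 and Pcdhga12, and 9 of them overlapped the first 2.5 kb of one of these. Wild-type lists held 1, 3 and 1 of them, mfn2-/- lists 1, 0 and 1, vhl-/- lists 1, 0 and 1, and HIF1dPA lists 0, 1 and 1. The vhl-/- replicate 1 peak between Pcdhgb7 and Pcdhga11 had a score of 165.44, while no member of the same list scored above 70.57. Counted by position from Pcdha1 to the last gamma gene, whatever the symbol, wild-type lists held 13.7 ± 2.08 H3K9me3 peaks (SD, n = 3) and mfn2-/- lists 1.67 ± 1.53. The vhl-/- lists held 5.33 ± 1.15 and the HIF1dPA lists 5.67 ± 1.15 (n = 3 each), and again no mutant list reached a wild-type list.

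By the feature classes in the lists, 23 of the 64 members (35.9%) were at promoters, 26 (40.6%) in distal intergenic sequence, 14 (21.9%) in introns and 1 in a 3′ UTR. Over all autosomal H3K9me3 peaks, 14.0% were at promoters and 61.0% in distal intergenic sequence. A promoter class here reaches up to 3 kb from a transcript start, and starts are dense in these clusters.

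Individual positions recurred little between libraries. The 64 peaks merged into 51 regions, of which 41 (80.4%) were in 1 list, compared with 84.6% of all 13699 merged H3K9me3 regions. Within wild-type, 4 of 33 members (12.1%) overlapped a peak of another wild-type library, beside 31.9% of all autosomal wild-type peaks. Of wild-type members, 9 of 33 (27.3%) overlapped a mutant peak, and 10 of 31 mutant members (32.3%) overlapped a wild-type peak. Over all autosomal peaks these shares were 33.8% and 30.7%.

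No single H3K9me3 member region separated wild-type from a mutant, but few could. Such a region must be in at least 3 lists, and 2 of 51 member regions were, so the counts of 0 say little about the members. For a region in all 3 wild-type and no mutant lists, or the reverse, 0 of 33 member regions qualified in the comparison with mfn2-/-, against 2.15% of all H3K9me3 regions. The count was 0 of 40 for vhl-/- (1.71% of all regions), 0 of 41 for HIF1dPA (1.70%) and 0 of 51 for all mutants together (0.401%).

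Only 2 member regions, at Pcdhb18 and past Pcdhb22, were in at least 3 of 12 lists, and none was in at least 6, the number set for the main test. In the exact permutation test of covered length across the 4 genotypes, with Benjamini-Hochberg adjustment over 984 regions in at least 3 lists, the adjusted p was 0.622 at Pcdhb18 and 0.831 past Pcdhb22. By this test 44 of the 984 regions passed an adjusted p of 0.05 (4.47%), and 29.6% had an unadjusted p under 0.05, which neither member had (0.509 and 0.727). A region found in 1 genotype only cannot go below p = 0.0182 in this exact test, so it could not pass after adjustment.

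H3K27me3 was nearly absent from the clusters. Wild-type lists held 0, 1 and 1 member, mfn2-/- lists 0, 0 and 0, vhl-/- lists 0, 1 and 0, and HIF1dPA lists 0, 0 and 0, out of 3358 to 4035 peaks per list in the first 3 genotypes and 482 to 501 in HIF1dPA. All 3 peaks carried the symbol Pcdha11. The peak of vhl-/- replicate 2 ended 382 bp before the start of Pcdhac2, and stood at percentile 65.7 of its list with a score of 80.83, where the other 2 stood at percentiles 29.6 and 19.4 of theirs. The wild-type replicate 2 peak lay in a 3′ UTR by its class, in the last exons of the alpha genes (chr18:37186767-37187314), and that of wild-type replicate 3 in the gap before the beta cluster.

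The 2 marks did not meet at these genes. The 3 H3K27me3 peaks lay 100.9, 145.4 and 151.8 kb from the nearest H3K9me3 peak of any library. No beta or gamma symbol had an H3K27me3 peak in 12 lists. The only other H3K27me3 peaks within the cluster limits were assigned to Taf7, in wild-type replicates 1 and 3, and lay 12.6 kb before Pcdhga1. No H3K27me3 member region separated wild-type from mfn2-/- (0 of 2, against 1.05% of all regions), vhl-/- (0 of 3, 0.893%), HIF1dPA (0 of 2, 4.86%) or all mutants (0 of 3, 0.125%). Each of these member regions was in 1 list, so none could qualify.

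Protocadherins outside the clusters, single genes spread over several chromosomes, were listed beside the members. Of 12 such genes listed, 9 had an H3K27me3 peak and 8 an H3K9me3 peak, with 71 and 20 peaks in all, compared with 3 and 64 at the clustered genes. Pcdh8 had H3K27me3 in 10 of 12 lists, namely all 9 lists of wild-type, mfn2-/- and vhl-/- and 1 HIF1dPA list, with 24 peaks. Pcdh17 had H3K27me3 in 8 lists, Pcdh15 in 7 and Pcdh10 in 5. Pcdh19, a gene of the X chromosome, had 7 H3K27me3 peaks, all in the 3 mfn2-/- lists. That chromosome held 30.2% of all H3K27me3 peaks in mfn2-/- and 0.263% to 1.08% in the other genotypes. For H3K9me3, Pcdh9 was found in the most lists, 5, with 1 peak in each. These are counts, and the difference between the groups of genes was not tested.

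**Figure D5:**
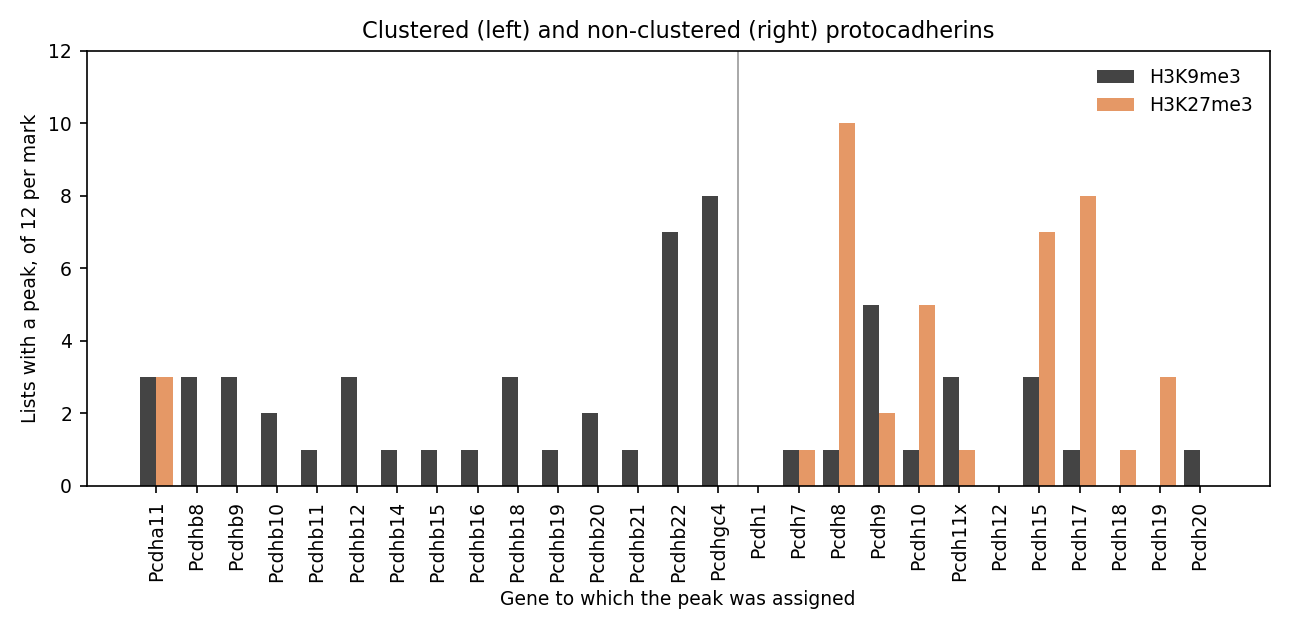
Number of lists, of 12 per mark, with an H3K9me3 peak (dark bars) or an H3K27me3 peak (light bars) assigned to each clustered protocadherin symbol (left of the line) and each of 12 non-clustered protocadherins (right). Dark bars prevail on the left, up to 8 lists for Pcdhgc4, and light bars reach 10 lists at Pcdh8.

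Genes whose products act on the clusters in other tissues were mostly without either mark. Of 17 such genes, 3 had H3K9me3 in some list. Lrif1, a partner of the cluster silencer SMCHD1, was found in 7 lists (1 wild-type and 2 of each mutant), Atf7ip, the cofactor of SETDB1, in 6 lists (2 wild-type, 1 mfn2-/-, 1 vhl-/- and 2 HIF1dPA), and Setdb1 itself in 1 mfn2-/- list. For H3K27me3, Smc1a, a cohesin subunit encoded on the X chromosome, had 13 peaks, all in the 3 mfn2-/- lists, and Lrif1 had 2. In mfn2-/-, 30.2% of H3K27me3 peaks lay on that chromosome, compared with 0.263% to 1.08% in the other genotypes. Ctcf, Rad21, Smchd1 and Trim28, the best known of these factors, had no peak of either mark.

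Markers of cell types were read for the same lists. None of the 5 myofiber genes, Ckm, Acta1, Ttn, Mb and Tnnt3, had a peak of either mark. Of the other markers, 0 of 4 neuronal, 0 of 4 myogenic, 0 of 3 immune, 1 of 3 endothelial (Cdh5) and 1 of 3 fibroblast (Dcn) genes had H3K9me3, both in 1 list. For H3K27me3 the numbers were 2 of 4, 2 of 4, 2 of 3, 0 of 3 and 1 of 3, with the neuronal gene Rbfox3 and the fibroblast gene Pdgfra each in 9 lists. A peak list does not give the share of cells of each type, and the part of other cells in the results above was not tested.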

How the data were processed

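H3K9me3 and H3K27me3 ChIP-seq libraries (3 per genotype and mark) were assigned to genotype and mark from the labels, and 1 input library was not used. The authors deposited 1 peak list per library, called separately, with each peak's interval, assigned gene, feature class and score, which is −10 times the log10 of the MACS p-value. Scores ran from 50 to 3100. The submitters' processing notes name BWA 0.7.5, MACS, deepTools 3.5.0 and mm10. Handling of duplicate and multiply mapped reads is not given in the sources used here, and depth is unknown. Coordinates are as listed, and the 1 Mb windows and counts by cluster limits were added after the data were seen. RefSeq GRCm38.p6 gene starts gave positions.

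Peaks of a mark were merged where they overlapped by 1 bp. Regions were tested by exact permutation of covered length over 12 libraries (15400 divisions), with Benjamini-Hochberg adjustment at 0.05, in regions found in at least 6 lists. Genes named were members in at least 3 of 12 lists, with set comparison lists; Pcdhb20, the genes in fewer lists, and Gm26672, Gm10545 and Gm6756 were named after their values were seen. The members and gene lists were chosen with earlier results of these data known. Deviations of H3K9me3 libraries from their genotype mean had a median correlation of 0.0213 in same-numbered pairs and 0.0213 in other pairs. Single same-numbered pairs ran from -0.306 to 0.456 (over 0.1 in 4 of 18), and other pairs from -0.506 to 0.240. For H3K27me3, 0 of 18 same-numbered pairs were over 0.1. The permutation test was checked on simulated data, in regions found in at least 6 lists and with large genotype differences. That check does not cover the sparser member regions, none of which was in 6 lists. Python 3.11.15, numpy 2.4.6, pandas 2.3.3, scipy 1.17.1 and matplotlib 3.10.9 were used.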

Additional observations from a re-analysis of the deposited data

How the results depend on the processing

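The mutant minus wild-type difference in mean H3K9me3 members per list (-10 for mfn2-/-, -6.33 for vhl-/- and for HIF1dPA, -7.56 over all mutants) was set against other processing. At a score of at least 100, it was 0 for mfn2-/- and HIF1dPA, 0.333 for vhl-/- and 0.111 for all mutants, the last 2 in the opposite direction and from 1 peak. With the same number of strongest peaks per list it was -1.33, 0.667, -0.333 and -0.333 for mfn2-/-, vhl-/-, HIF1dPA and all mutants, and the groups overlapped. Counting every peak within the cluster limits, an alternative chosen after seeing the data, gave -12.0, -8.33 and -8.00 for the 3 mutants. Joining peaks within 1000 bp kept the separation. Leaving out 1 library at a time gave -11.0 to -9.50 for mfn2-/-, -7.33 to -5.50 for vhl-/- and -7.33 to -5.83 for HIF1dPA, with no overlap. The mfn2-/- to wild-type ratio of 0.0909 was 0.0455 without mfn2-/- replicate 3 and 0.136 without replicate 2.

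For H3K27me3, the difference over all mutants of -0.556 was 0 at a score of at least 100 and in equal-length lists, where no member was left, and -1.22 for every peak within the cluster limits. It ranged from -0.889 (without wild-type replicate 1) to -0.389 when 1 library was left out. The count of H3K9me3 member regions separated from a mutant, 0, ranged from 0 to 1 when 1 library was left out. Without wild-type replicate 2 the Pcdhb18 region qualified against mfn2-/- and HIF1dPA, and without wild-type replicate 3 a gamma region at chr18:37722706-37723611. The share of H3K9me3 members in the beta cluster, 59.4%, was 100% (1 peak) at a score of at least 100 and 76.2% in equal-length lists, and the share in the first 2.5 kb of a gene, 29.7%, was 0% at that score. With the replicate block, 0 member regions passed, as without it, since no member region was in 6 lists. In at least 3 lists with the replicate block, the adjusted p was 0.737 at Pcdhb18 and 0.774 past Pcdhb22. The cause of these movements was not tested, apart from the loss of peaks that a stricter score or shorter list brings by construction. Apart from the alternatives with at least 3 lists, no member region was tested, so those counts of 0 say nothing about stability. Scores grow with depth, which is unknown, so heights were read within lists, and a missing peak is one not called.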
